A study of Mus musculus with 68 samples.

Results

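The EGF receptor family and its ligands were followed in 68 papillomas as 10 genes, taken by symbol: the receptors Egfr, Erbb2 and Erbb3, the ligands Areg, Ereg, Hbegf, Tgfa, Btc and Epgn, and the receptor inhibitor Errfi1. Of the 18194 gene symbols on the array these 10 have 22 probesets of the 45101. Tests were limited to probesets that exceeded the array median on 11 or more of 68 arrays, a filter that 19 of the 22 passed, among 21562 probesets (12597 genes) in all. Of the 3 others, Egfr 1457563_at and Erbb3 1452482_at lay above the median in 0 arrays and Btc 1421161_at in 3. Their gene has another probeset that was tested, and each gene is followed below by the probeset of highest mean level.

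The tumors came from 37 FVBBX mice, made by crossing SPRET/Ei with FVB/N and the offspring back to FVB/N, 8 to 12 weeks old at the start, and every mouse received DMBA on the dorsal back skin and then TPA for 20 weeks. Susceptible mice (12 mice, 22 arrays) carried 9 to 35 papillomas at 20 weeks, intermediate mice (19 mice, 35 arrays) 2 to 7, and resistant mice (6 mice, 11 arrays) 0 or 1. Days alive, which the labels lack for some mice, ran from 179 through a median of 247 to 388 in susceptible mice. They ran from 201 through 284.5 to 334 in intermediate and from 255 through 279 to 343 in resistant mice. Their part in the class values was not tested. Coat was agouti in 4 susceptible, 8 intermediate and 5 resistant mice, and 7 susceptible, 10 intermediate and 4 resistant mice were female by label. Each backcross mouse has its own genotype, so a mouse is not a copy of another of its class, and no untreated skin was analysed here. Levels are log2 RMA values, on which 1 unit is a doubling of signal, and papillomas of 1 mouse were averaged so that n counts mice. Array medians lay between 5.19 and 5.29. In 6 mice (8 arrays, 1 susceptible, 4 intermediate and 1 resistant) Xist or Eif2s3y went against the sex that was labelled. Markers of the labelled tissue were high: the mean level of 11 basal epidermal genes lay between 9.81 and 11.22 in susceptible, 10.17 and 11.10 in intermediate and 10.82 and 11.04 in resistant mice.

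EGF receptors are tyrosine kinases that pair with each other once a ligand binds, and in epidermis they drive keratinocyte growth, migration and survival through Ras and ERK. ERBB2 binds no known ligand and ERBB3 has little kinase activity, so both act mainly as partners. The ligands are made as membrane proteins and released by ADAM proteases, and in keratinocytes their transcription is itself raised by receptor and Ras signaling. ERRFI1 (MIG6) binds the active receptor and blocks its kinase. DMBA papillomas typically carry an activated Hras and TPA activates protein kinase C, both of which feed into the same pathway.

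Epgn, Ereg, Areg and Btc follow one another as neighboring protein-coding genes on mouse chromosome 5. The promoters of 3 of these neighbors and of Errfi1 are shown because their levels are set side by side below and because Areg and Errfi1 share a motif. Each is 300 bases around an annotated start, from RefSeq on GRCm38.p6, read 5′ to 3′ on the gene's strand: Epgn (chr5:91027267-91027566, plus strand), Areg (chr5:91139349-91139648, plus strand), Btc (chr5:91402945-91403244, minus strand) and the second Errfi1 start (chr4:150854820-150855119, plus strand). Capitals mark the cyclic AMP response element TGACGTCA.
Epgn: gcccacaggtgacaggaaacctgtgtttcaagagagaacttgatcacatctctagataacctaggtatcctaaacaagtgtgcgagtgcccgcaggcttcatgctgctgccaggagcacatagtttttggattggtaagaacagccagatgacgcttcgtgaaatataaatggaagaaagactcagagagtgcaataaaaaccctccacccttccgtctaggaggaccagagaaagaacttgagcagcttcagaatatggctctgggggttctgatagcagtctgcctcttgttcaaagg
Areg: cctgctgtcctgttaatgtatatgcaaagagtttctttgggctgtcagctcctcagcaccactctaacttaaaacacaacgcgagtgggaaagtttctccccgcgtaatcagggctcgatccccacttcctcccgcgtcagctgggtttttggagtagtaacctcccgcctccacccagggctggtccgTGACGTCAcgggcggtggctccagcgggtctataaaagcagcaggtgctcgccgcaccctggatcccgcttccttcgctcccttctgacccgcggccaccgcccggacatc
Btc: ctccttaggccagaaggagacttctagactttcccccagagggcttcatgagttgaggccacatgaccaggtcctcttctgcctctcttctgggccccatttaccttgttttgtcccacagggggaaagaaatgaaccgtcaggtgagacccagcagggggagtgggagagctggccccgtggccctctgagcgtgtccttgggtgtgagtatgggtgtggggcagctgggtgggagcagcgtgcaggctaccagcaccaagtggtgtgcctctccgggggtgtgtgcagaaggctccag
Errfi1: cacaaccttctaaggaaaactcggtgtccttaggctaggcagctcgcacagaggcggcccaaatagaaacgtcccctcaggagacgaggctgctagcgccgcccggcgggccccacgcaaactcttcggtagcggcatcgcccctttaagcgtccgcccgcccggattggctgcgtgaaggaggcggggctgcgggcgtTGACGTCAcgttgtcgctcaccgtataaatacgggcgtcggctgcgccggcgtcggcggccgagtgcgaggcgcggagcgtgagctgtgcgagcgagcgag
The element TGACGTCA reads the same on both strands. It is in 2 of the 8 member promoters counted, which belong to 7 of the 10 genes. The matches lie 61 bases before the Areg start and 51 bases before this Errfi1 start. It is in 588 of all 32851 promoters (1.79%). The AP-1 site TGANTCA, searched on both strands and not contained in the first motif, is in 0 of the 8 and in 2565 of all promoters (7.81%). A match describes the letters and not the binding of a factor. Promoters of Ereg, Hbegf and Erbb3 are not shown and are not among the 8. Ereg and Erbb3 had no usable entry, while that of Hbegf was left out of the counts.

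The followed probeset of all 10 genes lay above the array median on 68 of 68 arrays. The lowest arrays of Epgn (5.27) and Btc (5.32) were close to the array medians of 5.19 to 5.29. Expression in every papilloma is therefore not shown for these 2 genes. Levels of different probesets cannot be ranked, but their spread over mice can be described. Epgn (epigen, a ligand of low affinity found in epidermis) varied most, with an SD of 1.09 over the 37 mice and a range of 5.76 log2 units. Areg (amphiregulin) had an SD of 0.59, Hbegf (heparin-binding EGF-like factor) 0.57, Ereg (epiregulin) 0.54 and Btc (betacellulin) 0.45. Tgfa (TGF-alpha), the receptors Egfr, Erbb2 and Erbb3, and Errfi1 had SDs of 0.37, 0.30, 0.30, 0.30 and 0.26. Of the family's other genes, Erbb4 and Nrg3 lay above the median on 0 arrays, Egf on 1 and Nrg4 on 5, while Nrg1 did so on 66 and Nrg2 on 67.

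Tumors of 3 intermediate mice stood apart in these genes. In 2 of them, mouse i and mouse ii, Epgn was very low in both papillomas, at 6.21 and 5.27 in mouse i and 6.39 and 6.55 in mouse ii. Their means of 5.74 and 6.47 lay under the 8.68 to 11.49 of the other 35 mice. Of the 21562 probesets tested, both mice lay below all others in 373, and Epgn had the widest gap of these at 2.22. This is a feature chosen after its values were seen.

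Ereg and Areg were also at their lowest in these mice. Ereg averaged 7.98 in mouse i and 8.43 in mouse ii, against 8.60 to 10.57 in the other 35 mice. Areg averaged 7.36 in mouse i and 7.01 in mouse ii, against 7.63 to 9.57 in the others. With Epgn, by which the mice were picked, 3 of the 19 tested probesets had both mice at the bottom, beside 373 of all 21562. They are those of 3 neighboring ligand genes. Btc, their neighbor, ranked 6 and 17 from the lowest of 37, Hbegf 5 and 9, Tgfa 4 and 7, and Errfi1 34 and 30. Egfr was the lowest of all in mouse i at 7.15 and ranked 23 in mouse ii.

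The 2 mice were labelled male, from different start cohorts, 1 white and 1 agouti, and neither had a sex label in doubt. After Epgn the widest gaps below all others were those of Neat1 (a nuclear long noncoding RNA, 1.58), Plcxd2 (1.13) and Gpsm1 (1.02). Above all others they had 699 probesets, led by 2810410L24Rik (1.32), Particl (1.13), Zbtb16 (1.02) and Tsc22d3 (0.94). Zbtb16 and Tsc22d3 are both known to be induced by glucocorticoids. Zbtb16 stood at 7.03 and 7.16 in these mice, against 4.30 to 6.01 in the others, and Tsc22d3 at 9.15 and 9.27, against 5.46 to 8.21. Among the marker lists, that of suprabasal and cornified epidermis (14 genes) ranked 2 and 5 from the lowest and that of T cells (6 genes) 6 and 1. Their part in the low ligand levels was not tested.

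The other case, mouse iii, was taken as the mouse whose 2 papillomas differed most in Ereg. In papilloma 2 of this mouse Erbb2 (6.78), Erbb3 (8.18), Ereg (7.03), Hbegf (8.66), Tgfa (7.97) and Btc (5.32) were the lowest of all 68 arrays. Egfr 1435888_at (9.18) and Errfi1 (11.25) were the highest there. Papilloma 1 of the mouse had 7.29, 9.46, 10.16, 9.94, 9.37 and 7.43 in the same 6 genes, 7.86 for Egfr and 9.97 for Errfi1. The mean of mouse iii was 8.52 in Egfr 1435888_at but 7.96 in Egfr 1460420_a_at, where the 37 mice ran from 7.77 to 8.56. The array of papilloma 2 was also the highest of 68 in the lists of fibroblast (mean level 13.22), macrophage and dendritic cell (10.63) and mitotic genes (9.37), and the second lowest in basal (9.82) and hyperplastic epidermis (12.66). In whole tumors fewer cells of a type and less RNA per cell cannot be told apart. Results that rest on these 3 mice are given with and without them. None of the 3 enters the comparison of susceptible with resistant mice.

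**Figure D1:**
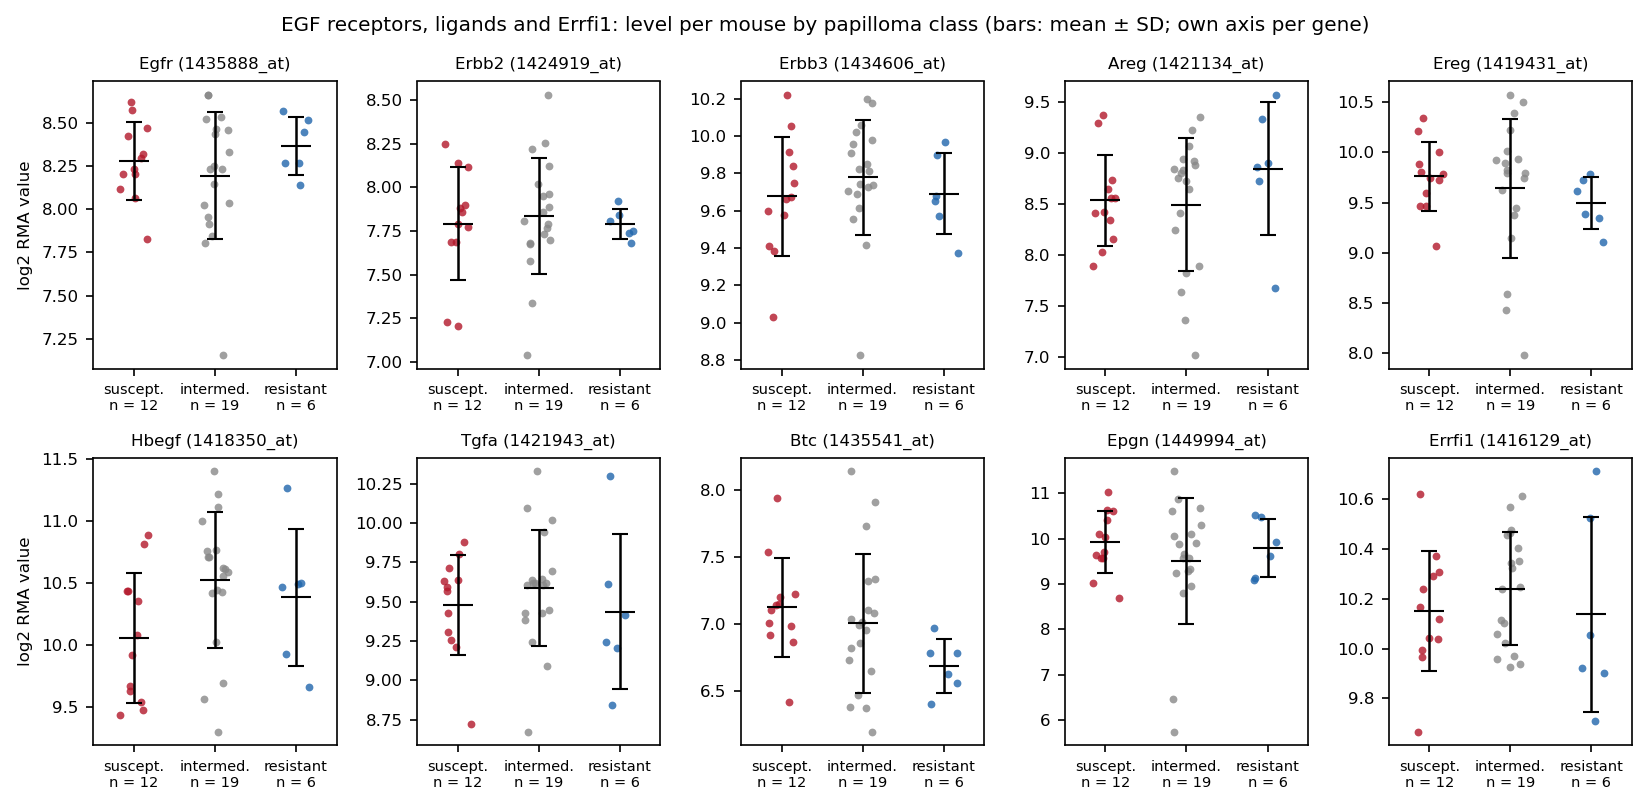
Level of each gene per mouse (log2 RMA value, own axis per gene) in susceptible, intermediate and resistant mice, with bars for the mean ± SD. The classes overlap in every gene, 9 of 12 susceptible mice lie above all resistant mice in Btc, and 2 intermediate mice lie far below the rest in Epgn.

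The comparison of susceptible with resistant mice asks which tumor transcripts go with the number of papillomas. None of the 19 member probesets passed the test (limma, Benjamini-Hochberg over 21562 probesets, adjusted p under 0.05), where 11 probesets did in all (0.051%). At an unadjusted p under 0.05 there was 1 of 19, that of Btc, against 9.53% of all probesets. A SAM-type statistic over arrays called 710 probesets and 0 of the 19, with a smallest member q of 0.0765. It treats papillomas of 1 mouse as independent, so its calls and q values can overstate the evidence. The median difference of the 19 was -0.013 and that of all tested probesets 0.0076.

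Among the receptors, Egfr ran from 7.83 through a median of 8.26 to 8.62 in susceptible, from 7.15 through 8.23 to 8.66 in intermediate and from 8.14 through 8.36 to 8.56 in resistant mice. Susceptible minus resistant was -0.088 (SE 0.11, limma adjusted p = 0.873). Erbb2 ran from 7.21 through 7.82 to 8.25 in susceptible, from 7.04 through 7.80 to 8.53 in intermediate and from 7.68 through 7.78 to 7.92 in resistant mice, where the 6 values were closest together. The Erbb2 difference was 0.0037 (95% interval -0.28 to 0.28, SE 0.13). Erbb3 had medians of 9.67, 9.81 and 9.66 in susceptible, intermediate and resistant mice and a difference of -0.013 (-0.31 to 0.28, SE 0.14). In these 3 followed probesets the classes lay on top of each other, and the intervals of all 3 lie between -0.31 and 0.28. Another Egfr probeset, 1424932_at, had -0.23 (exact permutation p = 0.14, unadjusted), with 6 of 12 susceptible mice below all resistant mice. The remaining tested Egfr probesets had differences between -0.12 and -0.0015.

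Of the ligands, Btc came closest to a difference. It ran from 6.42 through 7.12 to 7.94 in susceptible mice, from 6.19 through 6.99 to 8.14 in intermediate mice and from 6.40 through 6.70 to 6.97 in resistant mice. Thus 9 of 12 susceptible mice lay above all 6 resistant mice, and the classes still overlapped. Susceptible minus resistant was 0.44 (SE 0.16, 95% interval 0.11 to 0.77), or 1.35-fold, with an adjusted p of 0.327 by limma. The exact two-sided permutation test over 18564 splits, run on each of the 22 member probesets without adjustment, gave p = 0.0143 here, the smallest. The other Btc probeset, 1421161_at, which failed the filter, had 0.15 (exact permutation p = 0.416). Leaving out each mouse in turn moved the difference of the followed probeset between 0.36 and 0.50. No setting brought it past the adjusted threshold.

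Ereg had medians of 9.76, 9.79 and 9.50 in susceptible, intermediate and resistant mice, with ranges of 9.07 to 10.34, 7.98 to 10.57 and 9.11 to 9.78. The difference between susceptible and resistant mice was 0.27 (SE 0.15, adjusted p = 0.615 by limma), and 6 of 12 susceptible mice lay above all resistant mice. Hbegf ran from 9.43 through 10.00 to 10.89 in susceptible, from 9.30 through 10.62 to 11.41 in intermediate and from 9.66 through 10.48 to 11.27 in resistant mice. Its difference was -0.33 (SE 0.25, adjusted p = 0.736), and 4 of 12 susceptible mice lay below all resistant mice. Areg had medians of 8.49, 8.75 and 8.88 in the same classes and a difference of -0.31 (SE 0.25, adjusted p = 0.753). Neither gene separated the classes.

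Epgn had medians of 9.88 in susceptible, 9.67 in intermediate and 9.78 in resistant mice and a difference of 0.12 (SE 0.31, adjusted p = 0.952 by limma). Its interval of -0.53 to 0.78 was the widest of the 10 followed probesets. Tgfa had medians of 9.58, 9.62 and 9.33 in susceptible, intermediate and resistant mice and a difference of 0.043 (SE 0.18). The inhibitor Errfi1 had medians of 10.14, 10.25 and 9.99 and a difference of 0.015 (SE 0.14). Resistant mice spread more widely in Errfi1 than susceptible mice, with an SD of 0.24 in susceptible and 0.39 in resistant mice.

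**Figure D2:**
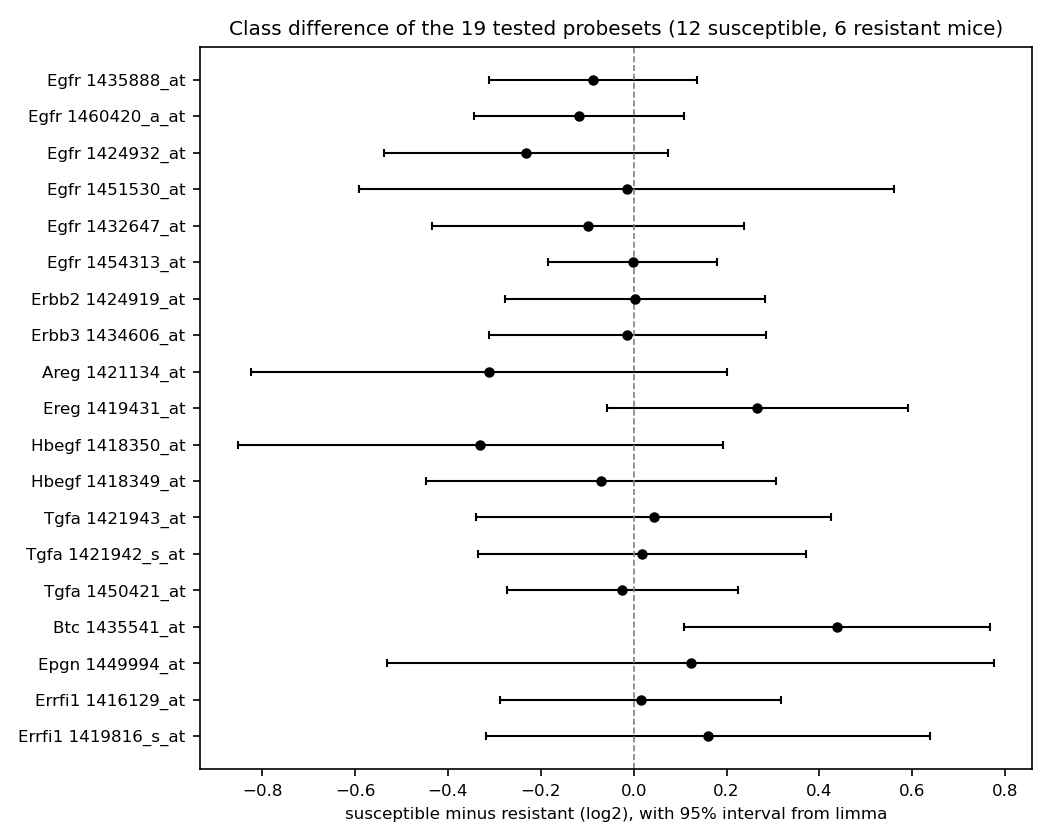
Susceptible minus resistant difference (log2) of the 19 tested probesets with the 95% interval from limma, 12 susceptible and 6 resistant mice. The dashed line marks 0, and the interval of Btc 1435541_at, 0.11 to 0.77, is the only one to leave it out.

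Against the intermediate class, susceptible mice again showed 0 of 19 members past the threshold in limma, where 2 probesets passed in all (0.00928%). Unadjusted, 5 of 19 had a p under 0.05, against 16.1% of all probesets. They were Hbegf 1418350_at at -0.47 (SE 0.19, adjusted p = 0.239), Egfr 1451530_at at -0.40, Egfr 1432647_at at -0.27, Egfr 1460420_a_at at -0.20 and Tgfa 1450421_at at -0.19, all lower in susceptible mice. The second Hbegf probeset, 1418349_at, had -0.062. With start cohort as a block the difference of Hbegf 1418350_at was -0.83 (SE 0.23, adjusted p = 0.163), so the direction held and the call did not come. The classes were spread unevenly over the start cohorts, some of which held mostly 1 class. Values with a cohort block therefore rest on few mice. The log2 ratio of 3′ to 5′ Actb signal, a sign of RNA quality, had medians of 0.82 in susceptible, 0.64 in intermediate and 0.62 in resistant mice. Over the 37 mice Hbegf had r = -0.25 and rho = -0.40 with it (permutation p adjusted over 10 relations 0.83 and 0.14, unadjusted 0.134 and 0.014), and its part in the difference from intermediate mice was not tested. With the ratio as a covariate the Hbegf difference between susceptible and resistant mice was -0.022 (SE 0.25, adjusted p = 0.986 by limma), against -0.33 without it. Resistant mice against intermediate mice gave 0 of 19 in limma, and 0 unadjusted, where 168 probesets passed (0.779%) and 18.2% of all had an unadjusted p under 0.05. With start cohort as a block 6 of 19 were under 0.05 unadjusted, beside 19.4% of all, with a smallest adjusted p of 0.183.

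Coat and sex gave no call either. In this cross agouti mice carry a SPRET/Ei allele at Tyr. Agouti minus white called 0 of 19 where 16 probesets were called (0.0742%), with 2 at an unadjusted p under 0.05, beside 7.87% of all probesets. Both were of Tgfa: 1421943_at at -0.32 (SE 0.11, adjusted p = 0.489 by limma) and 1450421_at at -0.20 (adjusted p = 0.554). Female minus male called 0 of 19 and none unadjusted, where 14 probesets were called (0.0649%) and 15.9% of all were under 0.05 unadjusted. The difference of the class effect between females and males was called in 0 of 19, with 0 unadjusted, and in none of the 21562 (0.0%), where 4.77% were under 0.05 unadjusted. Papilloma number at 20 weeks, set against the 10 genes over 37 mice, passed in 0 of 10 relations. The closest were Hbegf (r = -0.31 and rho = -0.33, permutation p adjusted over 10 relations 0.588 and 0.284) and Btc (r = 0.26 and rho = 0.32, adjusted p 0.603 and 0.284).

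Other genes of the pathway, taken as 5 lists with 1 probeset a gene, gave 0 calls between susceptible and resistant mice. The 8 proteases and regulators of ligand release had a median difference of -0.012, with Adam17, the main sheddase of Areg, Hbegf and Tgfa, at 0.088 (SE 0.10) and Adam10, which sheds Btc, at -0.19 (SE 0.096, adjusted p = 0.546 by limma). The 16 tested adaptors and kinases had a median of -0.0095, with 1 unadjusted, the kinase Src at -0.31 (adjusted p = 0.266). Both medians lay near the 0.0076 of all probesets.

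The 18 tested genes that restrain the receptor and ERK had a median difference of -0.15, with 13 lower and 5 higher in susceptible mice. At an unadjusted p under 0.05 were 3 of 18: the ERK phosphatase Dusp4 at -0.90 (SE 0.24, adjusted p = 0.17 by limma) and the Ras-ERK inhibitors Spred2 at -0.49 (adjusted p = 0.242) and Spry2 at -0.46 (adjusted p = 0.289). The 16 tested genes that ERK induces had a median of -0.23, with 13 lower, 3 higher and 5 unadjusted. These were Ptgs2 (cyclooxygenase) at -0.91, Fos at -0.65, Plaur (urokinase receptor) at -0.53 and Phlda1 at -0.52, and, in the other direction, Egr3 at 0.75 (SE 0.23, adjusted p = 0.234). None of these 8 values passed the adjusted test. Nrg1 and Nrg2, the family's other tested ligands, had -0.26 and -0.049.

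Differentiation markers are given beside these values. The 14 genes of suprabasal and cornified epidermis were all higher in susceptible mice, by a median of 1.20, with 1 called by limma and 13 at an unadjusted p under 0.05, and their mean level ran from 10.76 through 11.39 to 12.04 in susceptible, from 9.25 through 11.35 to 12.01 in intermediate and from 8.47 through 10.39 to 10.72 in resistant mice. The 4 keratins of simple epithelia were lower by a median of 1.78, with 0 called by limma and 3 at an unadjusted p under 0.05. Their mean level ran from 5.28 through 6.58 to 8.35 in susceptible and from 6.59 through 8.65 to 10.55 in resistant mice. Basal genes were lower in 11 of 11, at a median of -0.27. These lists moved with Btc and Ereg over mice, as described below, and their part in the class values was not tested.

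Papillomas of the same mouse resembled each other in most of these genes. The intraclass correlation is the share of variance that lies between mice, over the 31 mice with 2 papillomas. It passed the F test (30 and 31 degrees of freedom, adjusted p under 0.05) in 16 of 19 members, where 71.0% of all probesets passed. The median was 0.479 over the 19 and 0.435 over all, so a high share was not particular to the family. The highest were Hbegf 1418349_at at 0.674, Epgn at 0.669 and Egfr 1460420_a_at at 0.626.

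The similarity of single genes changed when the mice that stood apart were left out. Mice i and ii were picked by their low Epgn and mouse iii by its Ereg gap. A fall in Epgn without mice i and ii, and a rise in Ereg without mouse iii, therefore follow from the choice. Without mouse i and mouse ii (29 pairs) only 10 of 19 members passed, beside 59.7% of all probesets. Epgn then stood at 0.264 (adjusted p = 0.105), Ereg at 0.206 (adjusted p = 0.166) and Areg at 0.309 (adjusted p = 0.0705), against 0.669, 0.472 and 0.473 with these mice. Hbegf 1418349_at kept 0.614 and Egfr 1460420_a_at 0.614, and Tgfa 1421943_at had 0.555 against 0.562. Without mouse iii alone (30 pairs) 17 of 19 passed, beside 74.1%, and Ereg stood at 0.778, Epgn at 0.731 and Btc at 0.471. Without mice i and ii the followed Egfr probeset, 1435888_at, also lost its call (0.255, adjusted p = 0.113), as did Errfi1 1416129_at (0.333, adjusted p = 0.0559). With start cohort and sex removed, over all 31 pairs, 11 of 19 members passed, beside 40.6% of all probesets, with a median of 0.374 over the members and 0.307 over all. Epgn then had 0.613, Hbegf 1418349_at 0.580, Areg 0.431 and Ereg 0.412, all still past the threshold, and Egfr 1435888_at 0.226 (adjusted p = 0.163).

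The gap between papillomas gives the same values in log2 units. In Epgn 2 papillomas of a mouse differed by a median of 0.54, against 1.01 between papillomas of different mice (31 and 1860 pairs), and 9 of 31 mice had a gap over 1. Ereg had 0.21 within and 0.50 between mice, with 2 mice over 1, and Areg 0.51 within and 0.65 between, with 8 mice over 1. Egfr and Erbb2 had medians of 0.17 within mice and Erbb3 0.28. For Erbb3 (intraclass correlation 0.245, adjusted p = 0.105) papillomas of a mouse lay about as far apart as those of different mice, 0.32. In mouse iii the gap was 3.14 in Ereg, 2.61 in Epgn and 2.11 in Btc.

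**Figure D3:**
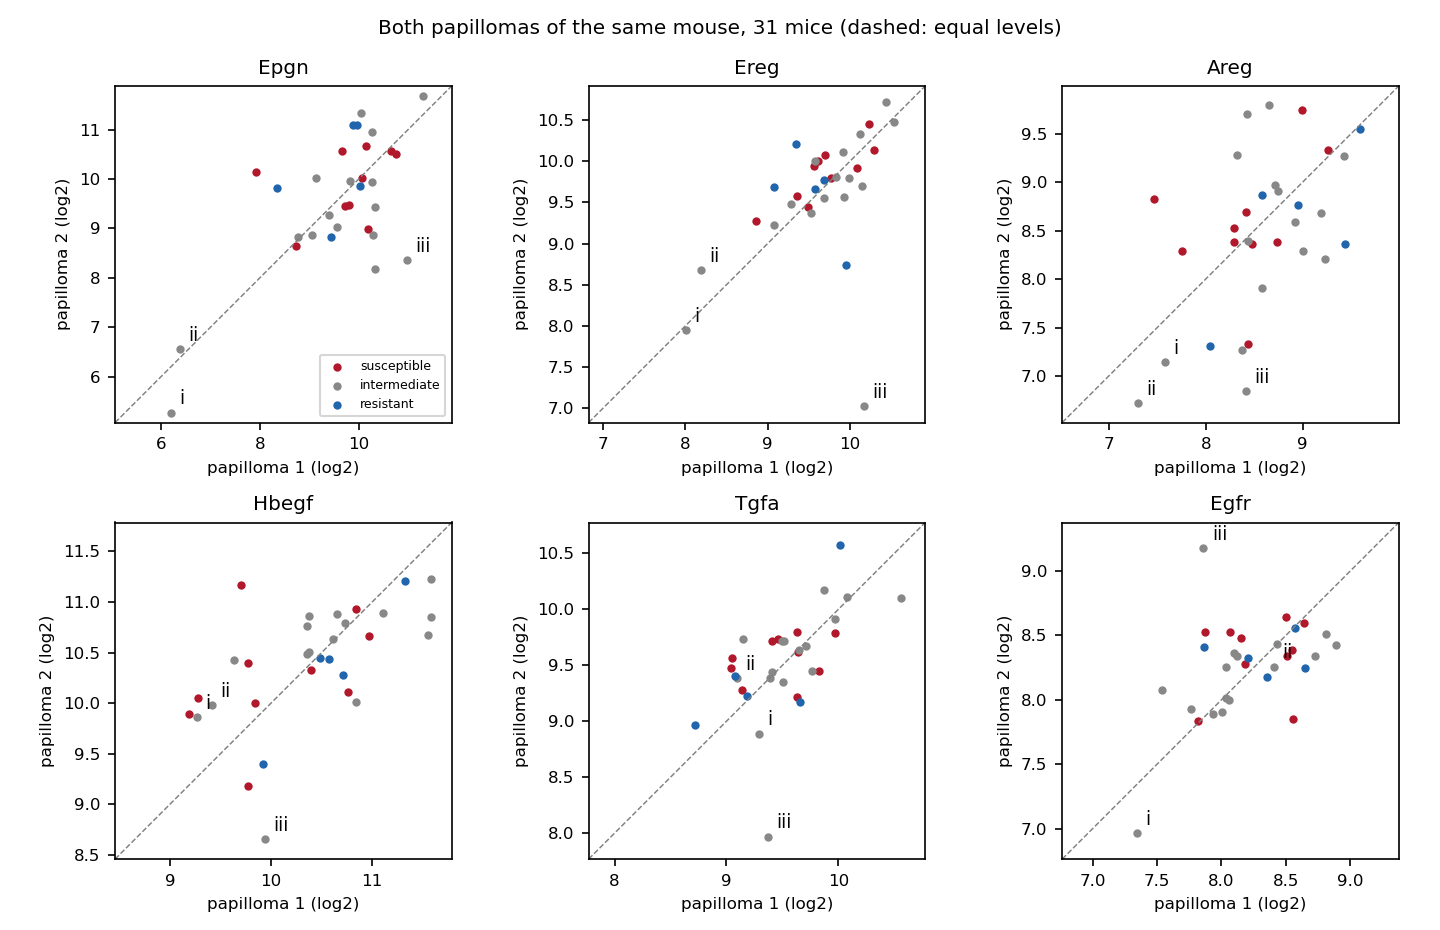
Papilloma 2 against papilloma 1 of the same mouse (log2) for Epgn, Ereg, Areg, Hbegf, Tgfa and Egfr, 31 mice, with a dashed line of equal levels and colors for susceptible, intermediate and resistant mice. Mice i and ii are low in both papillomas in Epgn, Ereg and Areg, and mouse iii has a low papilloma 2 in Ereg (7.03) beside a papilloma 1 at 10.16.

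Some of the genes moved together from mouse to mouse. Of the 45 relations among the 10 genes over 37 mice, 14 passed by Pearson's r, 6 by Spearman's rho and the same 6 by both (100000 permutations, p adjusted over the 45, smallest unadjusted p 1e-05). All 6 were positive. The share that passes among other gene pairs was not computed, so the count does not set the family apart. Erbb2, for one, had r = 0.84 with Mark2, a gene outside the family. The neighbors Ereg and Epgn had r = 0.76 and rho = 0.60 (adjusted p = 0.00015 and 0.00405), the partner receptors Erbb2 and Erbb3 r = 0.69 and rho = 0.63 (adjusted p = 0.00015 and 0.00405), and the ligands Hbegf and Tgfa r = 0.64 and rho = 0.55 (adjusted p = 0.00015 and 0.00795).

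The other 3 pairs were weaker. Ereg and Btc had r = 0.48 and rho = 0.51 (permutation p adjusted 0.0181 and 0.0161), Areg and Hbegf r = 0.46 and rho = 0.47 (0.0205 and 0.0274), and Tgfa and the inhibitor Errfi1 r = 0.40 and rho = 0.44 (0.0498 and 0.0473). Tgfa and Errfi1 passed by neither measure with the Actb ratio removed (0.0538 and 0.0746) or without mice of doubtful sex label (0.0926 and 0.091). With start cohort and sex removed this pair passed by r alone (0.0398 and 0.0558), and with first papillomas only by both (0.00945 and 0.0425). Ereg and Btc did not pass without mice of doubtful sex label (0.109 by both measures). Areg passed with Ereg (r = 0.54) and Epgn (r = 0.53) by r alone, with rho = 0.39 and 0.32. Ereg and Errfi1 were negative by r alone (r = -0.49, adjusted p = 0.0154). Egfr passed with 1 gene, Epgn, by r alone (r = 0.46 and rho = 0.31), and without mice i and ii this was r = 0.20 and rho = 0.27 (adjusted p = 0.47 by r).

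The 3 mice that stood apart carried part of this. Without mice i and ii (35 mice) Ereg and Epgn had r = 0.53 and rho = 0.52 (adjusted p = 0.015 and 0.0195), while Areg had r = 0.29 with Ereg and 0.18 with Epgn (adjusted p = 0.258 and 0.535). Without all 3 mice (34 mice) 3 relations passed by both measures: Erbb2 and Erbb3 (r = 0.78 and rho = 0.76), Tgfa and Errfi1 (r = 0.72 and rho = 0.74) and Ereg and Epgn (r = 0.57 and rho = 0.53). Hbegf and Tgfa then had r = 0.55 and rho = 0.48 (adjusted p = 0.00619 and 0.0508). The value of Tgfa and Errfi1 over the 34 mice lay above that over all 37, and the 3 mice lay high in Errfi1 and low in Tgfa.

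Leaving out the 2 mice farthest in the first gene of a pair gave r = 0.53 for Ereg and Epgn, 0.55 for Erbb2 and Erbb3, 0.66 for Hbegf and Tgfa, 0.51 for Ereg and Btc, 0.37 for Areg and Hbegf and 0.58 for Tgfa and Errfi1. All but Areg with Hbegf (adjusted p = 0.147) still passed by r. In Ereg and in Areg the 2 farthest mice were mice i and ii. For the pairs that start with Ereg or Areg this is therefore the same removal as above and no separate check. Within the start cohorts of 6, 8 and 9 mice r was 0.21, 0.97 and 0.95 for Ereg and Epgn, where the cohorts of 8 and 9 each held 1 of mice i and ii. It was 0.96, 0.59 and -0.31 for Erbb2 and Erbb3, 0.43, 0.83 and 0.44 for Hbegf and Tgfa, and 0.80, 0.28 and 0.11 for Tgfa and Errfi1. In the same cohorts it was 0.11, 0.50 and 0.14 for Ereg and Btc and 0.30, 0.71 and 0.66 for Areg and Hbegf. Without mice i and ii the cohorts of 8 and 9 had r = 0.84 over 7 mice and 0.80 over 8 mice for Ereg and Epgn. For Erbb2 and Erbb3 they then had 0.79 and 0.57, so the negative value rested on mouse ii.

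The difference between the 2 papillomas of a mouse is free of what these 2 papillomas share. It was taken as papilloma 1 minus papilloma 2, and r and rho depend on that numbering. Over 31 such differences Erbb2 and Erbb3 had r = 0.71 and rho = 0.69 (permutation p adjusted 0.00045 and 0.0018), and without mouse iii r = 0.69. Ereg and Epgn had r = 0.58 and rho = 0.55 (adjusted p = 0.00703 and 0.04). Without mouse iii they had r = 0.40 and rho = 0.50 (adjusted p = 0.142 and 0.0611). Tgfa and Errfi1 had r = -0.38 and rho = 0.021 (adjusted p = 0.0772 and 0.954), and without mouse iii r = 0.13 and rho = 0.13 (adjusted p = 0.6 and 0.632). Egfr and Epgn had r = -0.58 within mice, and without mouse iii -0.42 (adjusted p = 0.12). Without mouse iii 2 of 45 differences passed by both measures, Erbb2 with Erbb3 and Erbb3 with Areg (r = -0.63).

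**Figure D4:**
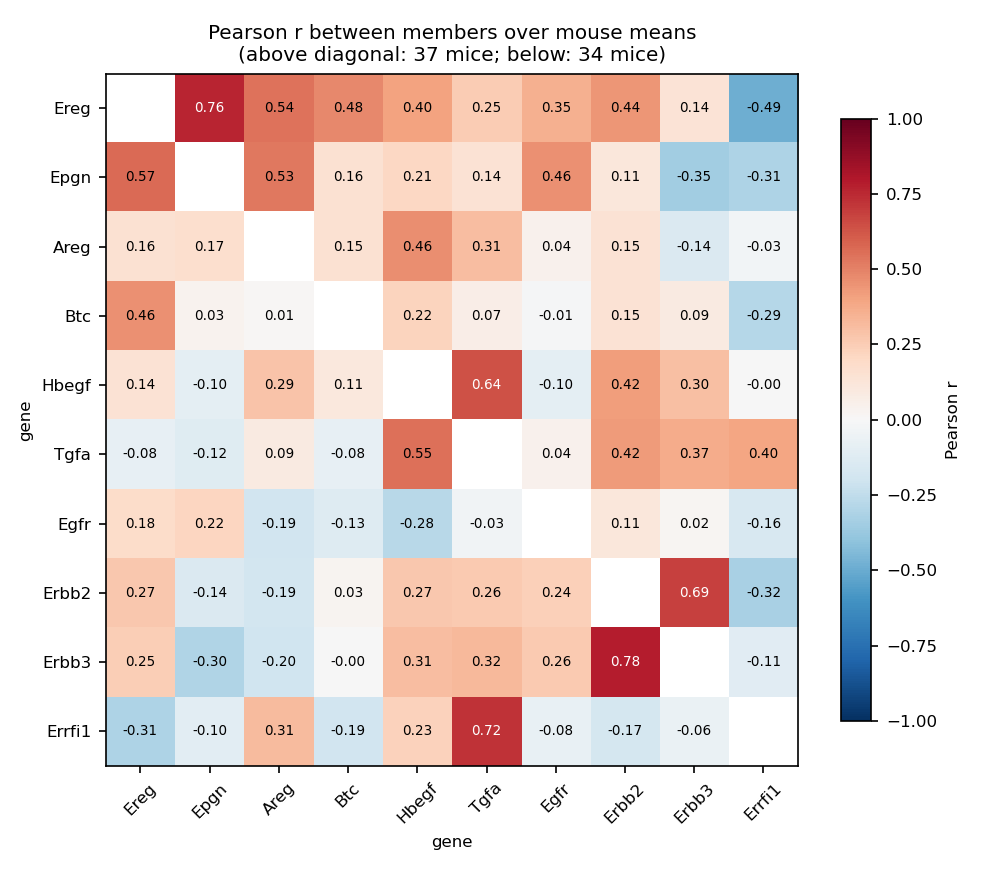
Pearson r between the followed probesets of the 10 genes over mouse means, above the diagonal over 37 mice and below it over 34 mice without i, ii and iii. Ereg with Epgn falls to 0.57 below the diagonal, against 0.76 above it, while Tgfa with Errfi1 stands at 0.72 below and 0.40 above.

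**Figure D5:**
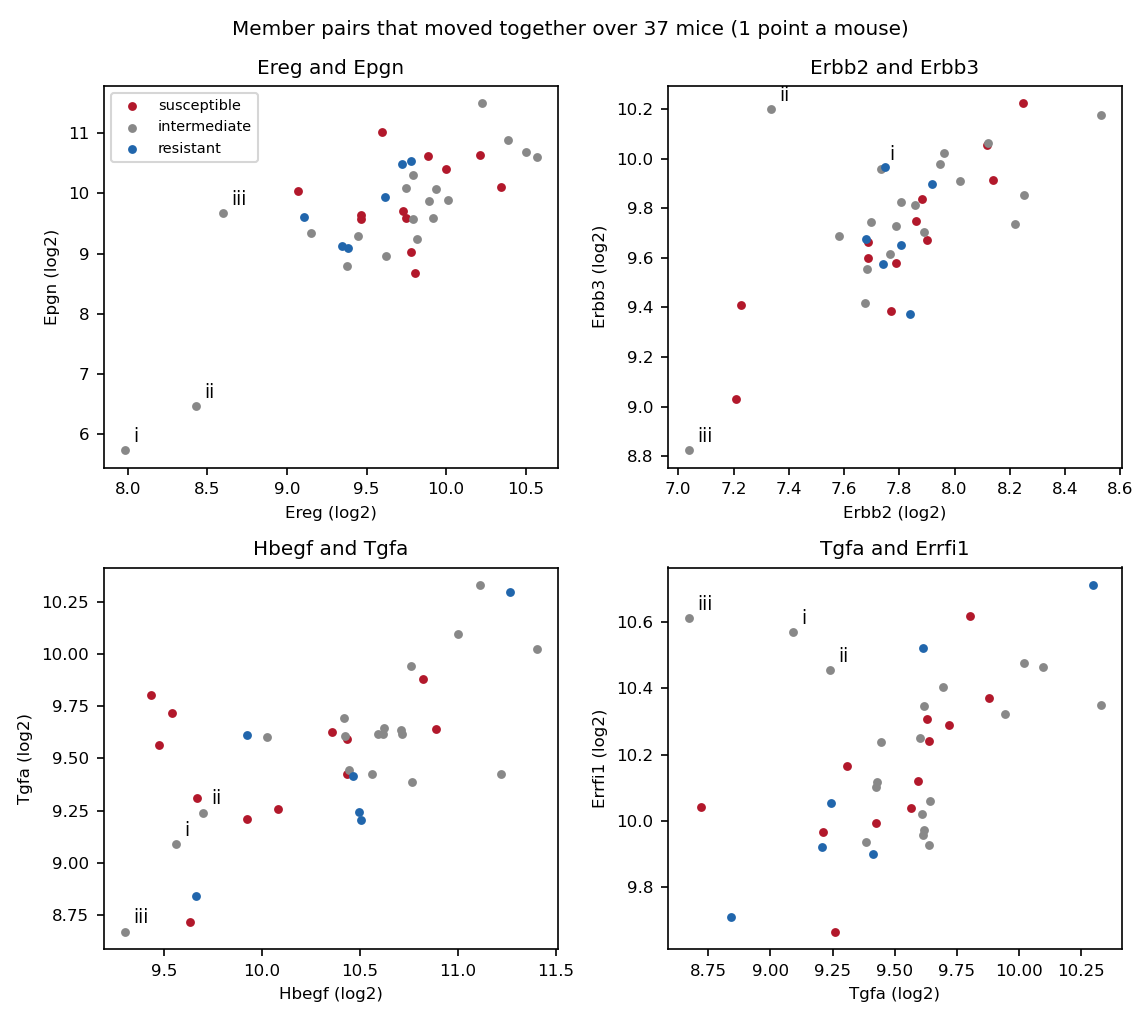
Mouse means (log2) of 4 pairs of genes, 1 point a mouse, colored for susceptible, intermediate and resistant mice, with i, ii and iii marked. The 3 classes are mixed along each cloud, and mice i and ii lie at the low end of Ereg and Epgn.

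Probesets of the same gene agree to different degrees. Over 37 mice r was 0.83 between the 2 probesets of Hbegf, 0.59, 0.68 and 0.84 among the 3 of Tgfa and 0.75 between the 2 of Errfi1. The 6 tested probesets of Egfr did not follow one another closely: 1435888_at had r between -0.32 and 0.30 with the other 5, and the closest 2, 1460420_a_at and 1451530_at, had 0.60. Statements on Egfr therefore hold for the probeset named.

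Marker lists of epidermal and other cells were set against the 10 genes. Of 130 relations between the 10 genes and 13 marker lists, 10 passed by r, 10 by rho and 8 by both (100000 permutations, adjusted over the 130). Ereg was higher with the suprabasal and cornified list (r = 0.56, rho = 0.67, adjusted p = 0.0169 and 0.0039) and lower with the simple keratins (r = -0.51, rho = -0.63, adjusted p = 0.0268 and 0.00585). Btc ran the same way, with r = 0.53 and rho = 0.58 for the cornified list and r = -0.53 and rho = -0.57 for the simple keratins (adjusted p = 0.0169 by r and 0.0065 by rho for both lists). Without the 2 farthest mice r was 0.62 and -0.47 for Ereg and 0.48 and -0.50 for Btc, and of these 4 only Ereg with the cornified list still passed (adjusted p = 0.011).

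Hbegf and Tgfa moved with the hyperplastic epidermis list instead, at r = 0.52 and rho = 0.57 for Hbegf and r = 0.54 and rho = 0.47 for Tgfa (permutation p adjusted 0.0169 by r for both, 0.00936 and 0.0476 by rho). Btc had r = 0.48 and rho = 0.48 with the same list. Hbegf was lower with the fibroblast list (r = -0.53, rho = -0.54, adjusted p = 0.0169 and 0.0139). Erbb2 and Erbb3 had r = 0.53 and 0.51 with the basal list, but rho = 0.32 for both, which did not pass (adjusted p = 0.263). Without the 2 farthest mice Hbegf with the hyperplastic list still passed (r = 0.60, adjusted p = 0.011), whereas the others of this group did not, at r = 0.47 for Tgfa, 0.49 for Btc, -0.48 for Hbegf with fibroblasts, 0.30 for Erbb2 and 0.35 for Erbb3. By rho alone Ereg was lower with the neutrophil list (r = -0.29, rho = -0.48, adjusted p = 0.313 and 0.0456) and Hbegf with the striated muscle list (r = -0.45, rho = -0.49, adjusted p = 0.0657 and 0.0442). Without the 2 farthest mice these had r = -0.27 and -0.40, and without mice i, ii and iii r = -0.64 and -0.55 (adjusted p = 0.00195 and 0.0195). Areg, Epgn, Egfr and Errfi1 passed with 0 lists by r or rho. Without mice i, ii and iii Ereg with the cornified list had r = 0.46, Hbegf with the hyperplastic list 0.46 and Tgfa with it 0.46 (adjusted p = 0.0589 for each). By rho these were 0.63, 0.50 and 0.37 (adjusted p = 0.00563, 0.0364 and 0.174). Ereg with the simple keratins had r = -0.69 (adjusted p = 0.0013). Btc with the cornified list (r = 0.52), Btc with the simple keratins (-0.56) and Hbegf with fibroblasts (-0.55) also passed by r (adjusted p = 0.0332, 0.0195 and 0.0195). Btc with the hyperplastic list and Erbb2 and Erbb3 with the basal list did not (0.0916, 0.0589 and 0.103).

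Within the cohorts of 6, 8 and 9 mice r with the cornified list was 0.53, 0.36 and 0.80 for Ereg and 0.64, 0.72 and 0.29 for Btc, and r with the simple keratins -0.31, -0.032 and -0.62 for Ereg and 0.062, -0.51 and -0.60 for Btc. With the hyperplastic list it was 0.71, 0.43 and 0.15 for Hbegf, 0.17, 0.69 and 0.30 for Tgfa and 0.50, 0.38 and 0.54 for Btc. For Hbegf with the fibroblast list it was -0.90, -0.021 and -0.53. With the basal list it was 0.73, 0.91 and 0.57 for Erbb2 and 0.73, 0.77 and 0.19 for Erbb3. For Ereg with neutrophils it was 0.18, 0.15 and -0.44, and for Hbegf with striated muscle -0.91, -0.36 and -0.17. The direction was the same in all 3 cohorts except for Btc with the simple keratins and Ereg with neutrophils.

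The tested genes whose levels over the 37 mice were most like each member are given as a description by r. Hbegf was most like the immediate early gene Junb (0.84, and 0.87 over 34 mice) and the cornified envelope gene Sprr1a (0.78). Areg was most like the AP-1 subunit Fosl1 (0.71 and 0.58 over 34 mice) and Serpinb2 (0.69 and 0.42). Ereg was most like the elongation factor Ell2 (0.82 and 0.73) and the deubiquitinase Usp2 (0.82 and 0.68). The nearest to Epgn were Cyb561d2 (0.77 and 0.42), Brix1 (0.77 and 0.61) and Ereg, so the order rested in part on the mice that stood apart.

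Among the receptors, Egfr 1435888_at was most like Sos1, the exchange factor that links receptors to Ras (0.84, and 0.75 over 34 mice). Erbb2 was nearest to the kinase Mark2 (0.84 and 0.83) and Erbb3 to the receptor phosphatase Ptprf (0.83 and 0.75). Tgfa was nearest to Ccdc71l (0.79 and 0.75), Btc to the heme transporter family gene Flvcr2 (0.74 and 0.71) and Errfi1 to the Ras-related gene Rras2 (0.71 and 0.73).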

How the data were processed

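The authors deposited log2 RMA values of Affymetrix mouse expression arrays, 1 papilloma an array, background-corrected, quantile-normalized and summarized per probeset. No RMA version is given in the sources used here. Quantile normalization sets all arrays to 1 distribution, so a change of all genes at once would not show. Probesets were named through the platform annotation, and Areg 1421134_at through a supplement of the study. Members and gene lists were chosen with earlier results of these data known.

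Papillomas of 1 mouse were averaged. Classes follow the labels (over 7 papillomas at 20 weeks or under 2). Comparisons used limma 3.58.1 (R 4.3.3), adjusted by Benjamini-Hochberg over 21562 probesets, an exact permutation test, and a SAM-type statistic over arrays (100 permutations, q of 5%) as an alternative. Where nothing else is said the mouse is the replicate, and the number of mice limits the precision. Coat and sex were fitted in 1 model over 37 mice. Intraclass correlations, permutation correlations (100000) and marker scores used Python 3.11.15, numpy 2.4.6 and scipy 1.17.1, and pandas 2.3.3 and matplotlib 3.10.9 served for tables and plots. The fits were tested on simulated data. Genes named are the members, list genes at an unadjusted p under 0.05 or of stated role, and the genes most alike by r. Alternatives covered the filter, random block, first papilloma, start cohort, sex, coat, centring, Actb ratio, classes at 24 weeks, doubtful sex labels and each mouse left out. Those without mice i, ii and iii and the differences within pairs were chosen after seeing the data.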

Additional observations from a re-analysis of the deposited data

How the results depend on the processing

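Between susceptible and resistant mice 0 of 19 member probesets and 0 pathway genes passed under every alternative run with limma, and 0 of 19 by the SAM-type statistic. By the exact test of single values 1 of the 22 member probesets, that of Btc, had an unadjusted p under 0.05. Leaving out each mouse in turn gave 1 to 2, with Ereg added without 1 susceptible mouse and Areg without 1 resistant mouse. Same-mouse similarity passed in 16 members, in 10 without the 2 mice of lowest Epgn and in 11 with start cohort and sex removed. The relations among members passing by both measures were 6 in the main analysis, 3 without the 3 mice that stood apart and 2 within 30 pairs of papillomas, and relations with marker lists passing by r were 10, and 3 without the 2 farthest mice. Differences near 0 changed sign. Erbb2 stood at -0.086 with first papillomas only, -0.019 with a cohort block, -0.012 with sex, -0.044 with coat, -0.0016 with arrays centred and -0.048 without doubtful sex labels. Erbb3 stood at 0.0099 with mouse as a random block, 0.032 with the cohort block and 0.051 with the Actb ratio. Tgfa stood at -0.31 with the cohort block, -0.22 with coat and -0.21 with the classes at 24 weeks, and Epgn at -0.090 with the cohort block and -0.098 with the classes at 24 weeks. Errfi1 stood at -0.048 with first papillomas, -0.14 with the cohort block or coat, -0.017 with the Actb ratio and -0.18 with the classes at 24 weeks. Leaving out each mouse gave -0.019 to 0.27 for Epgn, -0.038 to 0.057 for Erbb2, -0.077 to 0.045 for Erbb3, -0.070 to 0.13 for Errfi1 and -0.076 to 0.21 for Tgfa. None of these values was called, and the cause was not tested. Within pairs of papillomas r turned to -0.58 for Egfr with Epgn and -0.38 for Tgfa with Errfi1 (0.13 without mouse iii), and without mouse iii to -0.42 for Egfr with Epgn (between mice 0.20 without mice i and ii), -0.18 for Erbb2 with Tgfa and -0.14 for Erbb2 with Hbegf. No paired analysis was possible because each mouse belongs to 1 class and the replicate numbers only name samples. Classes at 24 weeks held 16 susceptible and 3 resistant mice, and probesets close to the array median measure little above background.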
